A study of Mus musculus with 11 samples.

Results

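Brain vessels are lined by endothelial cells, whose tight and adherens junctions form the blood-brain barrier, and are wrapped by mural cells, which are the pericytes of capillaries and the smooth muscle of larger vessels. A set of 10 genes known for these cells was followed through ribosome-bound RNA of mouse cerebellum, as 10 of the 55421 genes listed in the count tables. The members were chosen by gene symbol. Cldn5, Pecam1, Cdh5, Esam, Slco1a4, Egfl7, Itm2a and Eng stand for endothelial cells, 8 in all, and Rgs5 and Pdgfrb, 2 in all, stand for mural cells.

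The libraries came from whole cerebellum at postnatal day 56, 1 per animal tag. The 4 KO animals carried Pcp2Cre, the floxed Tie2 allele on both chromosomes (Tie2flox/flox) and the tagged ribosomal protein allele Rpl22HA/HA, and the 7 WT animals carried Pcp2Cre and Rpl22HA/HA without the floxed allele. The Cre driver and the tag were therefore shared by all 11 animals, and WT here does not mean animals without transgenes. Cre under the Pcp2 promoter, a Purkinje cell promoter, switches on the HA tag, and an antibody against HA then pulls ribosomes with their RNA out of a homogenate of all cerebellar cells. Tie2, encoded by Tek, is a receptor of angiopoietins best known from endothelium. The study asked how ribosome-bound RNA of Purkinje cells differs without Tie2. For vessel genes the same files give a level per library, and a comparison of KO with WT within each batch.

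The labels give 3 batches. Batch 1 held 2 KO and 1 WT libraries, batch 2 held 1 of each, and batch 3 held 1 KO and 5 WT libraries. Nothing beyond the animal tags says that replicates were independent, so p-values measure the spread between these libraries. Reads in genes numbered 2583227 to 4199299 in KO libraries and 4087197 to 5142671 in WT libraries. Purkinje cell markers were high in every library, with a summed level of 18 fixed markers of 6852 to 9295 CPM in KO and 7111 to 8428 CPM in WT. CPM are counts scaled to a common library total after TMM scaling, which corrects library totals for differences in composition. Reads of Pvalb, which encodes a calcium buffer of Purkinje cells, varied little with depth, with 914 to 1000 in KO and 953 to 988 in WT libraries. The part of depth in the results on vessel genes was not tested beyond a fit with the log2 library total as a term.

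Tek, the targeted gene (ENSMUSG00000006386, chromosome 4, 94739086 to 94874976), had 0, 7, 0 and 14 reads in KO F371, M374, M390 and M456, against 1, 0, 12, 11, 21, 8 and 40 in WT M379, M386, F473, M476, M477, M479 and M480. It was at 0 to 5.59 CPM in KO and 0 to 7.90 CPM in WT, and the fit, at 0.87 ± 0.95 (SE) on the log2 scale, missed the threshold (edgeR adjusted p = 0.522). No source used here says which exons are floxed, so reads over the whole gene do not check the genotype.

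The 10 members together took a small share of the reads, between 0.0122% and 0.0213% in KO libraries and between 0.0105% and 0.0215% in WT libraries. Whether fewer vessel cells or less RNA per cell lies behind a lower level cannot be told apart in such bulk RNA. Egfl7 and Itm2a had the most reads, 2771 and 1588 over all libraries, followed by Cldn5 with 1222. The other members had 56 (Cdh5) to 293 (Rgs5) reads over all libraries. Counting error is therefore large for most of the set. In single libraries a count of 0 allows up to 3 reads, which is 0.714 to 1.16 CPM in KO and 0.583 to 0.734 CPM in WT libraries, from counting error only.

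**Figure D1:**
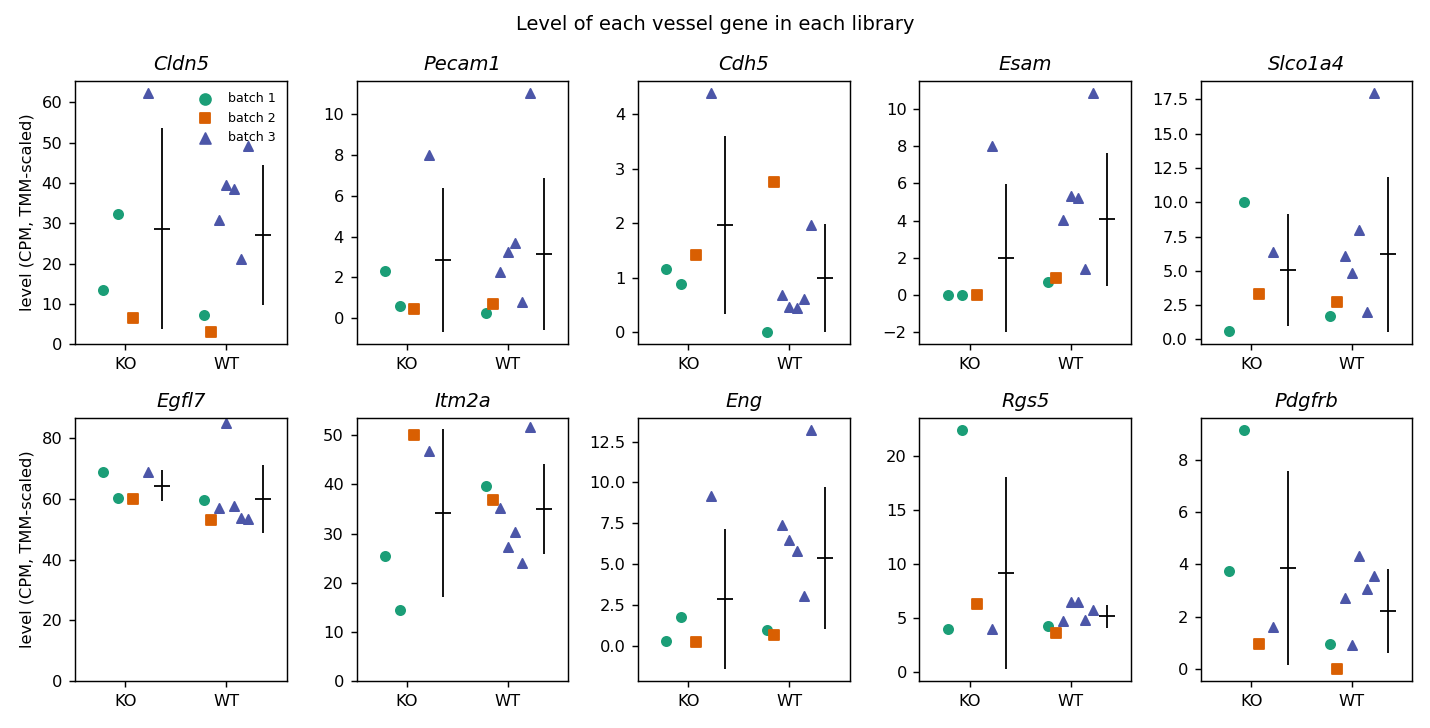
Level of the 10 vessel genes in each library, in TMM-scaled CPM on linear axes that differ between panels. KO libraries stand left of WT libraries, symbols and colours give the batch, and the horizontal mark with its bar is the group mean with its SD (n = 4 KO and 7 WT). Eng and Esam were higher in every batch 3 library than in any library of batches 1 and 2, and Egfl7 stayed between 53.1 and 84.9 CPM.

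Of the 10 members, 9 passed the filter on low counts, and Cldn5 alone differed between KO and WT. It rose, and no member fell. Over all 13375 genes tested, 10.9% were higher in KO at an adjusted p under 0.05 and 24.4% differed in either direction, so 1 of 9 members is a share near the background. The median log2 fold change of the 9 members was 0.44, with 7 above 0, against -0.02 for all tested genes, and their median SE of 0.68 was larger than the 0.23 of all tested genes. In no member did the values of the 4 KO libraries lie apart from those of the 7 WT libraries, which happened in 13% of tested genes.

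Promoter sequences from RefSeq (GRCm38.p6), from 250 bases before to 50 after the annotated start, were at hand for 6 of the 10 members. They were read for AGGAAG on either strand, a core bound by ETS factors, the transcription factor family known for endothelial genes. The sequences are shown for Cldn5, the member that passed the KO against WT test, for Eng, which separated by batch, and for Egfl7 and Itm2a, which varied least between libraries, in the direction of the gene, with the core in capitals (as CTTCCT where it lies on the opposite strand).
Cldn5, chr16:18776597-18776896, plus strand: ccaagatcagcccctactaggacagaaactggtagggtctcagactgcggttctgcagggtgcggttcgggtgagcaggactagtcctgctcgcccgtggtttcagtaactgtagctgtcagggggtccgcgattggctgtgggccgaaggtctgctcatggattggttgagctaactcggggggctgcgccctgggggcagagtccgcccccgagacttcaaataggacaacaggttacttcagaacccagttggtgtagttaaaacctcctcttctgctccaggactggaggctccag
Eng, chr2:32646345-32646644, plus strand: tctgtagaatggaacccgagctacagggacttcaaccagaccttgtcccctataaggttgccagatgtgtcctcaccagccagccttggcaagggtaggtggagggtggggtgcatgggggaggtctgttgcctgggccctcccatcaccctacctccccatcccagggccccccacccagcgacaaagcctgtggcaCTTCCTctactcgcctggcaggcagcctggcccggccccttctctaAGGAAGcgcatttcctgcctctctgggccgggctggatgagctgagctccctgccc
Egfl7, chr2:26580833-26581132, plus strand, the first of 3 starts: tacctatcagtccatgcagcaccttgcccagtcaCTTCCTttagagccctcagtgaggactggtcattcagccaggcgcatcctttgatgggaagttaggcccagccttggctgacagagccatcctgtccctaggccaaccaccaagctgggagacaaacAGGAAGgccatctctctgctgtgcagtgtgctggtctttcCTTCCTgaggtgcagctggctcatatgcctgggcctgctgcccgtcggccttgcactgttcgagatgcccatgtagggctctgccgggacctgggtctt
Itm2a, chrX:107403311-107403610, minus strand: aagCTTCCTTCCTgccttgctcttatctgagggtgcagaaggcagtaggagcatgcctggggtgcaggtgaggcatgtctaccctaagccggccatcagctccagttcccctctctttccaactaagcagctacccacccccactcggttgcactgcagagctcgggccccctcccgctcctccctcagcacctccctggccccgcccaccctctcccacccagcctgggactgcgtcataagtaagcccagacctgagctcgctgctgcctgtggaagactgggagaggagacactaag
The core occurred in 35.4% of 32841 mouse promoters of this length. Eng held it 2 times, at -52 and -6 from the start, and Egfl7 3 times in the promoter shown. At starts 2 and 3 of Egfl7 it occurred 2 and 0 times. Itm2a held it 2 times in overlapping matches, while the Cldn5 window held none. Slco1a4 held it 1 time and Rgs5 did not.

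Cldn5 (ENSMUSG00000041378, chromosome 16, 18776847 to 18778262, GRCm38) encodes claudin 5, the main tight junction protein of brain endothelium. Its level was 13.6, 32.2, 6.58 and 62.3 CPM in KO F371, M374, M390 and M456, against 7.19, 2.99, 30.8, 39.6, 38.5, 21.1 and 49.1 CPM in WT M379, M386, F473, M476, M477, M479 and M480. The group ranges overlap widely, and the means were 28.7 CPM ± 24.9 in KO and 27.0 CPM ± 17.3 in WT (SD, n = 4 and 7). The difference appeared within batches. In batch 1 both KO libraries were above the WT library, in batch 2 the KO library had 6.58 CPM against 2.99 CPM in WT, and in batch 3 the KO library had 62.3 CPM against 21.1 to 49.1 CPM in WT. The within-batch log2 ratios, KO over WT, were 1.6, 1.02 and 0.79 in batches 1, 2 and 3. The ratio in batch 2 rests on 28 reads in KO M390 and 13 in WT M386. Before scaling to library totals, KO M456 had 156 reads of Cldn5, within the 104 to 249 of the batch 3 WT libraries. With batch as a term the fitted log2 fold change was 1.14 ± 0.34 (SE), a 2.2-fold rise, and passed (edgeR's quasi-likelihood method, p adjusted after Benjamini-Hochberg = 0.0241). In scaled CPM every KO library stood above every WT library of its own batch in Cldn5 and in none of the other members. This order held in 16.4% of all tested genes.

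The call of Cldn5 depended on the batch term and on 2 libraries, while its log2 fold change stayed positive in all alternatives run. The log2 fold change was 0.06 when batch was left out (edgeR adjusted p = 0.954). Without WT M379, the only WT library of batch 1, it was 0.91 (edgeR adjusted p = 0.146), and without KO M456 it was 1.47 (edgeR adjusted p = 0.108). It also missed the threshold by limma-voom (0.99, adjusted p = 0.0932). A fit that held the log2 library total gave 1.42 (edgeR adjusted p = 0.345), and 0 genes of all passed in that fit, with 1841 at an unadjusted p under 0.05.

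Genes of other cell types moved with it. Of 12 granule cell genes tested, 8 rose, among them the transcription factor gene Zic1 by 1.37 ± 0.22 on the log2 scale (SE, edgeR adjusted p = 0.00219). Of 12 Bergmann glia and astrocyte genes 6 rose, with the water channel gene Aqp4, found in the astrocyte endfeet that cover vessels, at 1.42 ± 0.28 (SE, edgeR adjusted p = 0.00381). Of 11 oligodendrocyte genes tested 3 rose. The summed level of the granule cell list was 611 to 1647 CPM in KO and 468 to 901 CPM in WT, that of the astrocyte list 923 to 1638 CPM in KO and 836 to 1028 CPM in WT, and that of the oligodendrocyte list 320 to 988 CPM in KO and 283 to 725 CPM in WT. The highest value of each of these lists was in KO M456, which also had the highest Cldn5 in CPM and the lowest total. No gene of these lists was at 0 in all libraries. KO M456 was also the highest library for the Purkinje cell list, at 9295 CPM. The same held for the lists of other brain endothelial and other mural genes given below, at 2053 and 268 CPM. In KO M456 Spock2 gave 2640 of the 5140 reads of that endothelial list. Mcam and Cox4i2 gave 254 and 138 of the 671 reads of that mural list. The 2 mural members summed to 5.59 CPM there, the lowest KO value. The junction, endoglin and ALK1, red blood cell and choroid plexus lists were highest in KO M456 as well. The basement membrane, PDGF, Norrin and Wnt7, Notch, fibroblast and microglia lists were highest in other libraries. The part of other cell types in the rise of Cldn5 was not tested.

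The junction and adhesion genes beside Cldn5 gave no call. Pecam1 (ENSMUSG00000020717, chromosome 11), an adhesion molecule at endothelial cell borders, had 2.31, 0.591, 0.470 and 7.99 CPM in KO libraries in the order above, against a lowest value of 0.240, a median of 2.25 and a highest of 11.1 CPM in WT. The fit gave a log2 fold change of 0.96 ± 0.82 (SE, edgeR adjusted p = 0.409). Esam (ENSMUSG00000001946, chromosome 9), an endothelial adhesion molecule of tight junctions, had 0 reads in KO F371, M374 and M390 and 20 reads (7.99 CPM) in KO M456, against 0.719 to 10.9 CPM in WT with a median of 4.05 CPM. All KO reads of Esam thus came from the batch 3 library. In batches 1 and 2 the KO libraries with 0 reads stood against WT libraries with 3 and 4 reads, so no ratio is given there. In batch 3 the log2 ratio was 0.53, and the fitted value over all batches was -0.51 ± 0.81 (SE, edgeR adjusted p = 0.678). Cdh5 (ENSMUSG00000031871, chromosome 8), the cadherin of endothelial adherens junctions, had 24 reads in the KO libraries together and 32 in the WT libraries and did not pass the filter. It reached 4.39 CPM in KO M456 and 2.76 CPM in WT M386. A fit without a filter gave 1.69 ± 0.89 on the log2 scale (SE, edgeR adjusted p = 0.28). A long noncoding RNA gene, Gm29682, overlaps Cdh5 in the annotation, so its reads are uncertain.

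Eng and Slco1a4, a receptor and a transporter, showed no call either. Eng (ENSMUSG00000026814, chromosome 2, 32646595 to 32682669), which encodes endoglin, an accessory receptor for BMP9 in endothelium, had 0.289, 1.77, 0.235 and 9.19 CPM in KO libraries, against 0.690 to 13.2 CPM in WT with a median of 5.84 CPM. KO M456 and the batch 3 WT libraries were high, and the other KO libraries were low, as were WT M379 and M386. The fitted log2 difference was 0.05 ± 0.68 (SE, edgeR adjusted p = 0.969), and its sign turned in 6 of 21 alternatives. Eng overlaps the protein-coding gene Fpgs in the annotation, so a share of its reads is uncertain. Slco1a4 (ENSMUSG00000030237, chromosome 6), an organic anion transporter of the blood-brain barrier, had 0.577, 10.0, 3.29 and 6.39 CPM in KO libraries, against 1.68 to 18.0 CPM in WT with a median of 4.86 CPM. Here KO M374 was high while Esam and Pecam1 were low in the same library. The log2 fold change of Slco1a4 was 0.44 ± 0.82 (SE, edgeR adjusted p = 0.724).

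Egfl7 was nearly level across libraries, and Itm2a varied 3.57-fold between its lowest and highest library. Egfl7 (ENSMUSG00000026921, chromosome 2, 26581083 to 26592682), which encodes a protein secreted by endothelium and hosts the microRNA gene Mir126a, had 68.7, 60.2, 59.9 and 68.7 CPM in KO libraries, against 53.1 to 84.9 CPM in WT with a median of 56.9 CPM. Its highest library exceeded its lowest 1.6-fold, where Cldn5 spanned 20.8-fold. No such span is given for Slco1a4, Pecam1 and Eng, whose lowest libraries held 2, 1 and 1 reads, below the floor of 3 reads. The log2 fold change of Egfl7 was 0.15 ± 0.18 (SE, edgeR adjusted p = 0.56), and the within-batch log2 ratios were 0.11, 0.17 and 0.16. Itm2a (ENSMUSG00000031239, chromosome X, 107397195 to 107403360), a membrane protein gene used as a marker of brain endothelium, had 25.4, 14.5, 50.1 and 46.7 CPM in KO libraries, against 24 to 51.7 CPM in WT with a median of 35.3 CPM. The fitted log2 difference was -0.02 ± 0.30 (SE, edgeR adjusted p = 0.969). It was lower than WT in batch 1, with a log2 ratio of -0.98, and higher in batches 2 and 3, with 0.44 and 0.47.

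**Figure D2:**
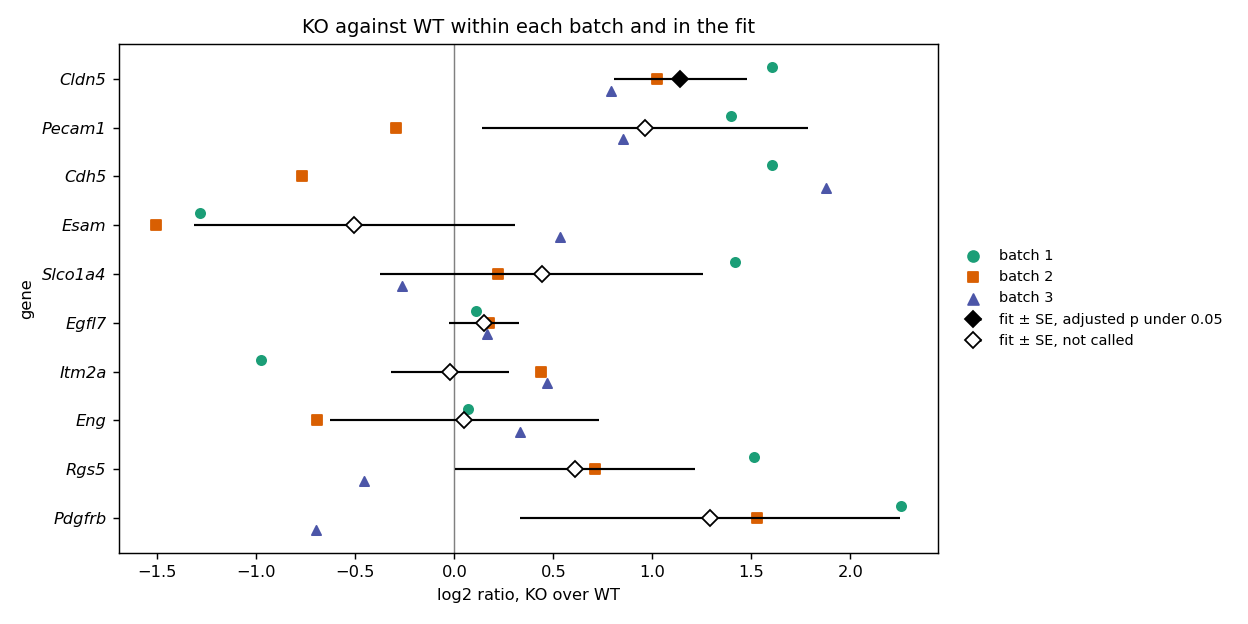
Log2 ratio of KO over WT for the 10 vessel genes. Coloured symbols are ratios of mean CPM (pseudocount 0.5 CPM) within batch 1, 2 and 3, and diamonds are the fitted log2 fold changes with batch as a term, with bars of 1 SE, filled where the adjusted p was under 0.05. Cldn5 had the filled diamond at 1.14, Egfl7 the tightest values near 0.15, and Cdh5 has no diamond because it was not tested. Ratios of Esam in batches 1 and 2, Cdh5 in batch 1 and Pdgfrb in batch 2 have a group at 0 reads and are set by the pseudocount.

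Both mural genes were highest in KO M374, and neither was called. Rgs5 (ENSMUSG00000026678, chromosome 1, 169655501 to 169695813), a regulator of G protein signalling used as a pericyte marker, had 4.04, 22.4, 6.34 and 3.99 CPM in KO F371, M374, M390 and M456, against 3.68 to 6.49 CPM in WT with a median of 4.88 CPM. Apart from KO M374 all libraries lay between 3.68 and 6.49 CPM. The fit gave 0.61 ± 0.60 on the log2 scale (SE, edgeR adjusted p = 0.481), 0.03 without KO M374 and 0.06 without WT M379. Pdgfrb (ENSMUSG00000024620, chromosome 18), the receptor through which endothelial PDGF-B recruits pericytes, had 3.75, 9.15, 0.940 and 1.6 CPM in KO libraries, against 0 to 4.32 CPM in WT with a median of 2.70 CPM. KO M374 was again highest. Its log2 fold change of 1.29 ± 0.96 (SE, edgeR adjusted p = 0.337) was 0.85 without KO M374 and 0.20 without WT M379. The summed level of both genes was 31.6 CPM in KO M374, against 5.59 to 7.79 CPM in the other KO libraries and 3.68 to 10.8 CPM in WT, and its log2 ratios were 1.81, 0.90 and -0.57 in batches 1, 2 and 3.

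KO M374 stood apart in other vessel genes as well, named here after their values were seen. The VEGF receptor gene Flt1 had 165 reads in KO M374, against 8 to 19 in the other KO libraries and 8 to 112 in WT. Atp13a5, a pericyte gene, had 46 reads in KO M374, against 0 to 12 in the other KO and 1 to 15 in WT libraries. Yet KO M374 had 0 reads of Esam, 1 read each of Ly6c1 and Ramp2 and 0 of Slco1c1, all known from brain endothelium. Clec14a and Lama4 were high as well in KO M374, with 36 and 44 reads. Esam and Ly6c1 were also low in KO F371 of the same batch, with 0 and 1 reads. High and low vessel genes thus stood side by side in KO M374. The genes named were picked from many, so they do not say how large a share of vessel genes was raised there. The reason for the high values was not tested.

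**Figure D3:**
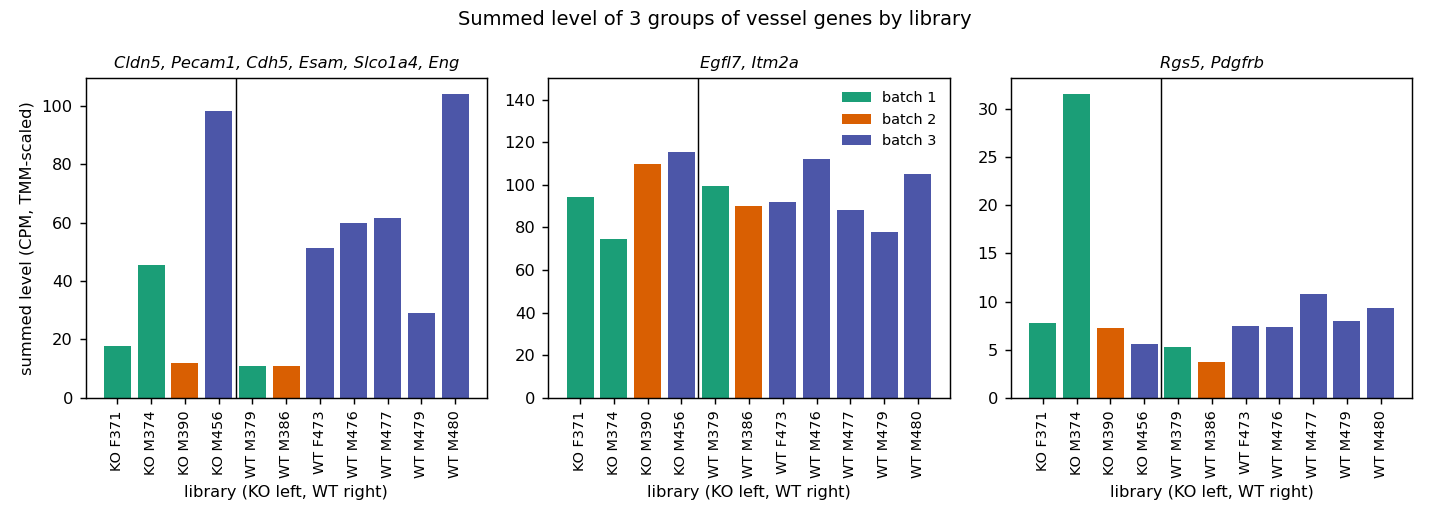
Summed TMM-scaled CPM of 3 groups of vessel genes in each library, with KO libraries left of the line, WT libraries right and colours for the batch. The left panel (Cldn5, Pecam1, Cdh5, Esam, Slco1a4 and Eng) runs from 10.8 to 104 CPM with the highest bars in KO M456 and WT M480, the middle panel (Egfl7 and Itm2a) from 74.7 to 115 CPM, and the right panel (Rgs5 and Pdgfrb) peaks at 31.6 CPM in KO M374.

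As a measure of vessel RNA the 8 endothelial genes together gave 112, 120, 122 and 214 CPM in KO libraries, against 101 to 209 CPM in WT with a median of 143 CPM. The means were 142 CPM ± 48.0 in KO and 142 CPM ± 39.7 in WT (SD, n = 4 and 7), and the log2 ratios were 0.07, 0.28 and 0.45 in batches 1, 2 and 3. Much of this sum is Egfl7 and Itm2a. With log2 CPM centred within batch, the other 6 endothelial genes had r of 0.54 to 0.78 with the mean of the remaining endothelial members. The sum mixes unlike genes, as that r was 0.03 for Egfl7 and 0.29 for Itm2a. Without them, a split made after their values were seen, the other 6 endothelial genes summed to 17.9, 45.5, 12.0 and 98.2 CPM in KO libraries, against 10.8 to 104 CPM in WT with a median of 51.3 CPM, and the log2 ratios were 1.51, 0.14 and 0.68. Much of this smaller sum is Cldn5, with 13.6, 32.2, 6.58 and 62.3 CPM in KO libraries and 2.99 to 49.1 CPM in WT. Egfl7 and Itm2a summed to 74.7 to 115 CPM in KO and 77.6 to 112 CPM in WT.

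Several members differed between batches. The 6 endothelial genes summed to 29.1 to 104 CPM in the 6 libraries of batch 3, against 10.8 to 45.5 CPM in the 5 libraries of batches 1 and 2. Eng was at 3.05 to 13.2 CPM in batch 3, against 0.235 to 1.77 CPM in batches 1 and 2, and Esam at 1.42 to 10.9 CPM against 0 to 0.920 CPM. These 2 members were higher in every batch 3 library, an order that 4.7% of tested genes showed. For Cldn5, at 21.1 to 62.3 CPM in batch 3, KO M374 with 32.2 CPM was the library of batches 1 and 2 that reached into the batch 3 range. Egfl7 had medians of 57.3 CPM in batch 3 and 59.9 CPM in batches 1 and 2. Since batch 3 holds 5 of the 7 WT libraries and 1 of the 4 KO libraries, group means that ignore batch mix this difference with genotype. No source used here says what differed between batches.

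**Figure D4:**
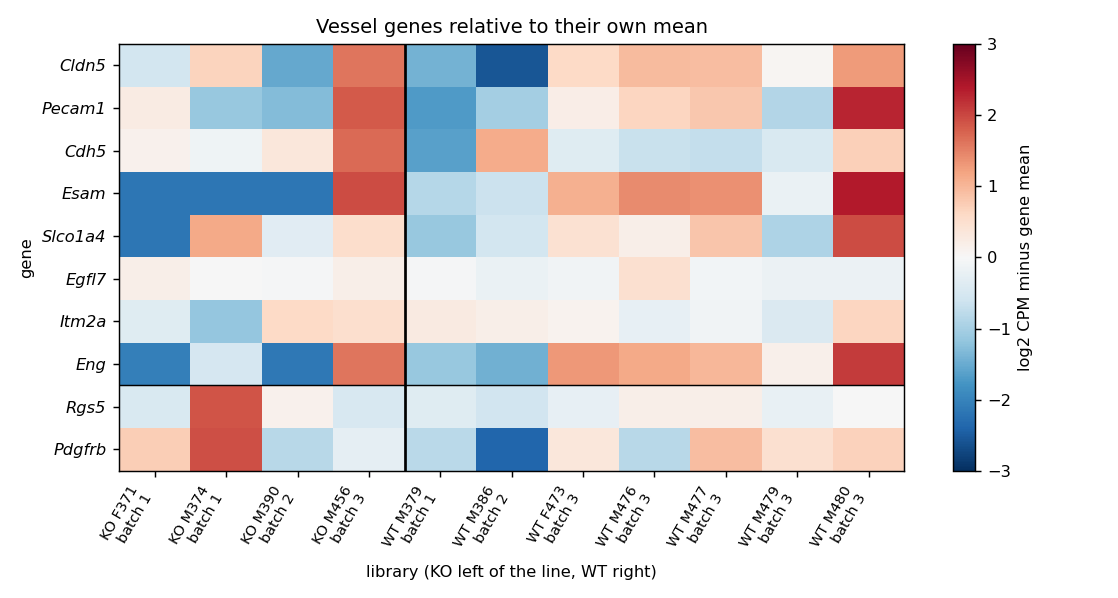
Log2 CPM of each vessel gene minus its mean over the 11 libraries, on a colour scale from -3 (blue) to 3 (red). KO libraries are left of the vertical line, and the mural genes Rgs5 and Pdgfrb are below the horizontal line. KO M456 and WT M480 are red for Cldn5, Pecam1, Esam and Eng, KO M374 for the mural genes, and the Egfl7 row is nearly white.

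How far members vary together was compared inside batch 3. Because the libraries fall apart by batch, no uncentred correlation over all of them is given. Among the 6 batch 3 libraries Cldn5 was compared with each of the 9 other members on log2 CPM. With Pecam1 Pearson's r was 0.938 (exact permutation p = 0.00972, adjusted p = 0.0563) and Spearman's rho 0.886 (exact permutation p = 0.0333, adjusted p = 0.15). With Esam r was 0.928 (exact permutation p = 0.0125, adjusted p = 0.0563) and rho 0.943 (exact permutation p = 0.0167, adjusted p = 0.15). With Eng r was 0.830 (exact permutation p = 0.0444, adjusted p = 0.128) and rho 0.771 (exact permutation p = 0.103, adjusted p = 0.306). All tests were two-sided and adjusted over the 9 pairs, and none of the 9 passed by r or rho, while 3 had an unadjusted p under 0.05 for r. Without the 2 libraries farthest from the Cldn5 median, WT M479 and KO M456, r was 0.933 with Pecam1, 0.943 with Esam and 0.650 with Eng, over 4 libraries. The remaining endothelial genes had r of 0.698 (Slco1a4), 0.738 (Cdh5), 0.795 (Itm2a) and 0.375 (Egfl7), and the mural genes -0.099 (Rgs5) and -0.278 (Pdgfrb), with exact permutation p from 0.0569 to 0.843.

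**Figure D5:**
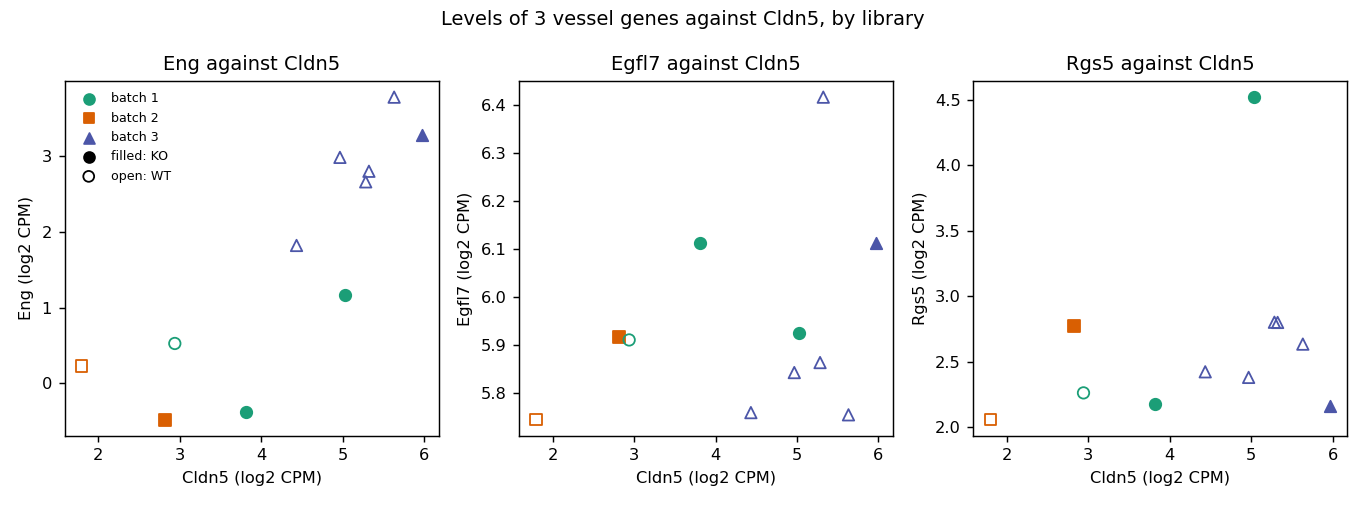
Log2 CPM of Eng, Egfl7 and Rgs5 against that of Cldn5 in 11 libraries. Filled symbols are KO, open symbols WT, and shape and colour give the batch. Eng shows batch 3 apart from batches 1 and 2, Egfl7 varies over a narrow range at any Cldn5 level, and Rgs5 has KO M374 alone above the rest.

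Genes with the most similar pattern were sought among 14969 genes of at least 1 mean CPM, by Pearson's r with the mean log2 CPM of the 10 members over 11 libraries, all values centred within batch. Podxl, a sialomucin gene of endothelium, ranked first with r = 0.959, and Tek ranked 6 with r = 0.903. The first 10 also held Haus8, Zbtb17, H2-K1, Dusp1, H2-Aa, Gm37940 and Tjp1, with r from 0.878 to 0.936. Of the 10, 2 were in the list of other brain endothelial genes, and Tjp1, which encodes the tight junction scaffold ZO-1, was in the junction list. Of the genes named here 8 were tested, and none passed the KO against WT test (edgeR). Among members, the r with the mean of the others was 0.783 for Cldn5 and 0.751 for both Eng and Slco1a4, but -0.05 for Egfl7 and 0.08 for Itm2a, as a description over 11 libraries that share batches.

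Other vessel genes, in lists chosen with earlier results of these data known, were counted in the same fit. Of 46 other brain endothelial genes 35 were tested, 5 rose and 1 fell, with a median log2 fold change of 0.52. Over all these lists of vessel, pathway and other cell type genes 58 genes were called by edgeR, 48 by limma-voom, 15 without WT M379 and 4 without KO M456. Beside these counts stand the shares over all 13375 tested genes. There edgeR called 24.4%, with 10.9% higher and 13.4% lower in KO, so calls within a list do not by themselves set that list apart. The amino acid transporter gene Slc7a5 rose by 0.91 ± 0.23 on the log2 scale (SE, edgeR adjusted p = 0.0115), with 52.3 CPM ± 23.0 in KO and 34.5 CPM ± 11.3 in WT (SD, n = 4 and 7). Mfsd2a, the lipid transporter that keeps transcytosis low at the barrier, rose by 1.80 ± 0.57 (SE, edgeR adjusted p = 0.0327), and its log2 ratios were 1.22, 1.71 and 1.45 in batches 1, 2 and 3. The first 2 ratios rest on few reads. KO F371 and M374 had 6 and 10 reads of Mfsd2a against 3 in WT M379, and KO M390 had 8 against 1 in WT M386. Ctla2a, Foxq1 and Cxcl12 rose as well, by 2.16, 1.5 and 1.36 on the log2 scale (edgeR adjusted p = 0.0492, 0.0371 and 0.0491). Ctla2a had 1 read in each of WT M379 and M386, the only WT libraries of batches 1 and 2. In batch 2 Foxq1 went the other way, with 27 reads in KO M390 against 58 in WT M386. Ly6e fell by 0.69 on the log2 scale (SE 0.19, edgeR adjusted p = 0.0184), with 50.1 CPM ± 10.4 in KO and 85.0 CPM ± 12.7 in WT. Several of these genes, such as Slc7a5 and Ly6e, are also made by other brain cells.

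Of 25 other mural genes 11 were tested and none passed by edgeR, DESeq2 or limma-voom, with 1 at an unadjusted p under 0.05 by edgeR. Vtn, the pericyte gene for vitronectin, had a log2 fold change of 0.88 ± 0.38 (SE, edgeR adjusted p = 0.104), with 3.46 to 34.3 CPM in KO and 4.07 to 19.5 CPM in WT. The PDGF list had 3 tested genes of 5, of which Pdgfa and Pdgfra rose by 0.53 ± 0.17 and 1.92 ± 0.64 (SE, edgeR adjusted p = 0.0339 and 0.0399), and limma-voom called 1 gene of this list. Pdgfra marks oligodendrocyte precursors and fibroblasts rather than mural cells, and Pdgfb, the ligand of the Pdgfrb receptor, was left out of the test by the filter on low counts.

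Among 21 tested genes of tight and adherens junctions 4 rose and 1 fell by edgeR, and limma-voom called 2 genes of this list. The small GTPase genes Rap1a and Rap1b rose by 0.60 ± 0.13 and 0.36 ± 0.11, and Cldn11, a claudin of myelin, by 1.36 ± 0.34 (SE, edgeR adjusted p = 0.00614, 0.033 and 0.0111). Afdn also rose and Nectin2 fell, with log2 fold changes of 0.54 and -0.59. Of 12 basement membrane genes tested 1 fell, Col18a1, by 0.56 on the log2 scale (SE 0.16, edgeR adjusted p = 0.023), and its mean was 117 CPM ± 8.17 in KO and 204 CPM ± 48.3 in WT (SD, n = 4 and 7). In the endoglin and ALK1 list 5 of 15 tested genes rose, with the signal transducer genes Smad1 and Smad4 at 0.68 ± 0.16 and 0.72 ± 0.20 and Id2, a target of this pathway, at 0.38 ± 0.11 (SE, edgeR adjusted p = 0.00781, 0.0173 and 0.0235). The receptor genes Bmpr2 and Tgfbr1 rose by 0.47 and 0.79 on the same scale. Before scaling to library totals Id2 was not higher in KO, with 994 to 1134 reads in KO and 1045 to 1158 in WT libraries.

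The Norrin and Wnt7 list, the signals that set up the barrier, had 4 of 11 tested genes higher and 1 lower. The co-receptor gene Lrp6 rose by 1.16 ± 0.21 and the feedback gene Axin2 by 1.97 ± 0.51, while Ndp, which encodes the ligand Norrin, fell by 0.83 on the log2 scale (SE 0.22, edgeR adjusted p = 0.00313, 0.0134 and 0.0138). The other 2 that rose were the ligand gene Wnt7a, by 0.94, and Apcdd1, by 2.07. Apcdd1 had 1 read in WT M379, and 0 reads in KO M390 against 2 in WT M386. Of 9 tested Notch genes 3 rose, Hes1 by 2.15 ± 0.57, Hey1 by 0.79 ± 0.21 and the ligand gene Dll1 by 1.77 ± 0.59 (SE, edgeR adjusted p = 0.0139, 0.0155 and 0.0406). Many genes of these pathways are also active in neurons and glia, so their counts do not speak of vessels alone.

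Perivascular fibroblast and meningeal genes had 4 of 11 tested higher and 1 lower by edgeR, and limma-voom called 2 genes of the list. By edgeR Igfbp2 was at 1.68 ± 0.40 and Mgp, a matrix protein, at 1.69 ± 0.44, while Slc6a13 fell by 0.82 on the log2 scale (SE 0.24, edgeR adjusted p = 0.0086, 0.0133 and 0.0231). Dcn, by 1.05, and Pdgfra, given above, were the others that rose. Of 7 tested microglia and perivascular macrophage genes 2 rose, C1qa by 1.30 ± 0.45 and Csf1r by 1.47 ± 0.51 (SE, edgeR adjusted p = 0.0481 and 0.0483), and limma-voom called 0 of them, against 4 at an unadjusted p under 0.05 by edgeR. The red blood cell list had 5 of 7 genes tested and none passed by edgeR, DESeq2 or limma-voom, with 2 at an unadjusted p under 0.05 by edgeR. Its summed level was 34.8 to 144 CPM in KO and 40.9 to 72.2 CPM in WT, highest in KO M456. Of 5 tested choroid plexus genes 2 rose, Enpp2 by 0.97 ± 0.19 and Otx2 by 3.17 ± 0.66 (SE, edgeR adjusted p = 0.00359 and 0.00504). Purkinje cell genes moved both ways, 4 of 18 higher and 3 lower, with Foxp2 at 0.51 ± 0.12 and Lhx1 and Gad2 at -0.45 and -0.38 on the log2 scale (edgeR adjusted p = 0.00807, 0.0097 and 0.00974). Calb1, Car8 and Pvalb also rose and Cacna1g fell, with log2 fold changes of 0.30, 0.36, 0.46 and -0.38. Before scaling to library totals, reads of Calb1, Car8 and Pvalb were not higher in KO. Calb1 had 2887 to 3656 reads in KO and 3453 to 3710 in WT libraries. Car8 had 2794 to 3186 in KO and 3061 to 3304 in WT, and the reads of Pvalb are given above.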

How the data were processed

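Ribosome-bound RNA of 11 cerebella was sequenced, and the authors deposited whole-number read counts per gene for each library, made with STAR and HTSeq on GRCm38 per the submitters' processing notes. Versions, counting options, strand setting and duplicate removal were not given in the sources used here. In each file 5 summary lines name no gene and stayed out. They held 7.29% to 12.0% (outside genes), 3.82% to 4.00% (ambiguous) and 8.83% to 10.6% (several places) of alignments in KO and 6.11% to 7.76%, 3.93% to 4.52% and 7.91% to 9.40% in WT. No pair of libraries agreed within sampling noise (chi-square per degree of freedom at least 2.01).

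Counts were fitted with edgeR 4.0.16 (R 4.3.3; filterByExpr on the group, TMM, batch and genotype, 7 residual degrees of freedom), with Benjamini-Hochberg adjustment over 13375 genes and a threshold of 0.05. The fit was first run on simulated counts with known changes. Those counts held no effect of depth beyond scaling, so they do not check the calls for it. Standard errors are the log2 fold change over the root of F. Log2 CPM used a prior count of 2, within-batch ratios a pseudocount of 0.5 CPM. Tables from RefSeq of the same assembly gave positions and promoters. Alternatives included DESeq2 1.42.0, limma-voom (limma 3.58.1), other scalings and filters, and leaving out libraries. All members and Tek were named, with up to 3 called genes per list by smallest p and the 10 most similar genes, of which 1 is not reported here; other names were added after their values were seen. Members and lists were chosen with earlier results of these data known.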

Additional observations from a re-analysis of the deposited data

Results flagged for a closer look

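In groups of this size a single library was tested for distance from the others, by the gap to its neighbour relative to the range. Of 24 such tests (10 genes and 2 sums in KO and in WT) 8 marked a library. The nominal rate of about 1 in 20 holds for independent tests of like libraries. Here the sums hold genes also tested singly and batches differ, so the count is not set against that rate. KO M456 stood apart in the KO group with 4.39 CPM of Cdh5 (nearest 1.41 CPM), 7.99 CPM of Esam (nearest 0 CPM) and 214 CPM of the 8 endothelial genes together (nearest 122 CPM). KO M374 stood apart with 22.4 CPM of Rgs5 (nearest 6.34 CPM) and 31.6 CPM of both mural genes (nearest 7.79 CPM). WT M480, the deepest library, stood apart in the WT group with 11.1 CPM of Pecam1 (nearest 3.67 CPM) and 18.0 CPM of Slco1a4 (nearest 8.0 CPM), and WT M476 with 84.9 CPM of Egfl7 (nearest 59.7 CPM). The groups span batches, and KO M456 is the only KO library of batch 3.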

How the results depend on the processing

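No paired analysis was possible because the labels number animals by tag, and no tag is shared between KO and WT; batch was a term of the fit. All genes called numbered 3257, and 0 with the log2 library total as a term (1841 at an unadjusted p under 0.05, edgeR), with 335 to 4632 when each library was left out (335 without KO M456, 522 without WT M379, 4632 without KO M390). Members called numbered 1, and 0 without the batch term, by limma-voom, or with the library total as a term, with 0 to 1 when each library was left out (0 without KO M456 or WT M379). DESeq2 also called 1. The adjusted p of Cldn5 ranged from 0.00445 to 0.954 over its alternatives. Genes of the other lists called numbered 58, and 0 with the library total, with 4 to 78 when each library was left out (4 without KO M456, 15 without WT M379). Cldn5 was 0.06 without the batch term, 0.99 by limma-voom, 1.42 with the library total and 0.91 to 1.47 when each library was left out. Without regard to batch 2 of 9 pairs with Cldn5 would pass, a count that mixes batches; it was 0 with values centred within batch and 1 to 3 with each library left out.

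The sign turned without the batch term for Pecam1 (-0.21), Slco1a4 (-0.30) and Eng (-0.98), with the library total for Egfl7 (-0.087) and Eng (-0.23), and in animals tagged M for Itm2a (0.016). When each library was left out, log2 fold changes ran from -0.30 to 1.00 for Slco1a4, from -0.38 to 0.48 for Itm2a and from -0.40 to 0.30 for Eng. None of these genes was called in any setting. The log2 ratio of the mural sum in batch 1 was 0.52 to 2.48 with 1 KO library left out. The cause was not tested. Cdh5 could be fitted only under the looser filters. Low counts limit all members but Egfl7 and Itm2a, including Cldn5 in batches 1 and 2.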
